A study of Mus musculus with 12 samples.

Results

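Collagens are the fibrous and sheet-forming proteins of the extracellular matrix, and 44 genes for collagen chains, of 27 collagen types, were followed here in the lungs of mouse embryos. A gene was taken as a member when a probe set on the array was annotated with exactly 1 symbol made of Col, a number, the letter a and a number, as in Col1a1. Where a gene had several such probe sets, which applied to 3 of the 44 genes, the brightest on average over the 12 arrays was used. These 44 genes were part of 22180 genes measured in the same way. They comprise 8 fibrillar, 10 basement membrane, 7 cartilage and 19 other collagens.

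Total RNA of whole lungs was hybridised to single-channel Affymetrix arrays at E14.5, when the airways are branching, with 4 specimens for each of 3 genotypes. The controls were Shh+/Cre, the Yy1 mutants were Yy1flox/flox;Shh+/Cre and the Dicer mutants were Dicerflox/flox;Shh+/Cre, so that the controls carried the Cre allele too. Yy1 is a zinc finger transcription factor, and Dicer is the enzyme that cuts microRNA precursors. Cre made from the Shh locus acts in the lung epithelium, whereas the RNA also came from mesenchyme, vessels, cartilage and blood cells that do not make Shh. In such bulk RNA, fewer cells of a type and less RNA per cell cannot be told apart. The labels name no litter, batch or sex and do not say whether a specimen was 1 embryo, so the p-values measure only the spread between these specimens.

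A collagen molecule is a triple helix of chains. Fibrillar collagens are secreted as procollagens, lose their end pieces and align into the fibrils that give mesenchyme its strength. Type IV collagen forms the network of basement membranes under epithelium and around capillaries, and types XV and XVIII sit at its borders. In the embryonic lung, fibroblasts make most of the fibrillar matrix, epithelium and endothelium both contribute to the basement membrane, and type II collagen marks the cartilage that forms around the trachea and main bronchi.

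All levels are log2 values as the authors deposited them, so that a difference of 1 is a doubling, and no level of a probe set is compared with that of another. Differences are given with their standard error (SE), and a gene was called when its limma p, adjusted by the Benjamini-Hochberg method over all 22180 genes of a comparison, was under 0.05. Across arrays the medians lay between 5.99 and 6.08. As a check of the tissue label, the controls read 11.34 ± 0.41 (SD, n = 4) for Sftpc, the surfactant gene of the distal lung epithelium, and 9.29 ± 0.12 for Nkx2-1, the lung epithelial regulator. Of the targeted genes, Dicer1 was lower in the Dicer mutants by -0.61 ± 0.10 (SE, adjusted p = 0.00127), and Yy1 differed by -0.19 ± 0.07 in the Yy1 mutants, which did not pass (adjusted p = 0.125). The arrays Yy1 mutant 2, Yy1 mutant 3 and Dicer mutant 4 had raised Y-linked genes and are called the Y-raised arrays below (Eif2s3y at 7.99, 5.92 and 7.84, against 3.73 to 4.48 in the controls), and the counts are also given without these 3 arrays.

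Of the 44 collagen genes, 6 rose and 6 fell in the Yy1 mutants, and 32 did not pass. Among all genes 2.77% rose and 3.84% fell, against 13.6% of the collagens in each direction. Fibrillar chains (Col1a1, Col5a1, Col5a2 and Col24a1) made up most of the rises, with Col6a6 and Col26a1, and chains of the basement membrane (Col4a3, Col4a4, Col4a6 and Col18a1) made up most of the falls, with Col27a1 and Col2a1. The changes were modest, from -0.56 to 0.48, and the median over the 44 genes was 0.02, beside 0.00 over all genes. With the array medians set equal, 4 collagens rose and 6 fell, beside 1.93% and 4.27% of all genes. With the 3 Y-raised arrays left out, 1 collagen rose (Col26a1) and 2 fell (Col4a4 and Col18a1), beside 1.1% and 1.63% of all genes.

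In comparison, 10 collagen genes rose and 4 fell in the Dicer mutants, and 30 did not pass. Among all genes 4.78% rose and 3.97% fell, against 22.7% and 9.09% of the collagens. The rises covered the chains of type I and type III collagen, Col5a2, the type IV chains Col4a1 and Col4a2, Col15a1, Col6a3, Col6a6 and Col14a1. The falls were those of Col27a1, Col4a4, Col10a1 and Col11a1. Differences ran from -0.47 to 0.55 with a median of 0.01, beside -0.03 over all genes. Without the 3 arrays named above, 2 collagens rose (Col1a1 and Col15a1) and 3 fell (Col27a1, Col4a4 and Col11a1), beside 2.61% and 1.79% of all genes. Both mutants were set against the same 4 controls, so their differences are not independent of each other, and they are given side by side.

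Set directly against each other, the mutants differed in 5 collagen genes. Col26a1 was higher in the Yy1 mutants, and Col4a1, Col4a2, Col15a1 and Col18a1 were lower. That is 2.27% higher and 9.09% lower, beside 1.57% higher and 3.39% lower among all genes. With equal array medians 1 collagen was higher and 4 were lower, beside 0.897% and 3.73% of all genes. The other 39 collagens did not pass. Without the 3 arrays, 0 collagens were higher and 3 were lower by limma (Col4a1, Col4a2 and Col18a1), with 3 higher and 8 lower at an unadjusted p under 0.05, beside 0.379% and 1.58% of all genes called.

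**Figure D1:**
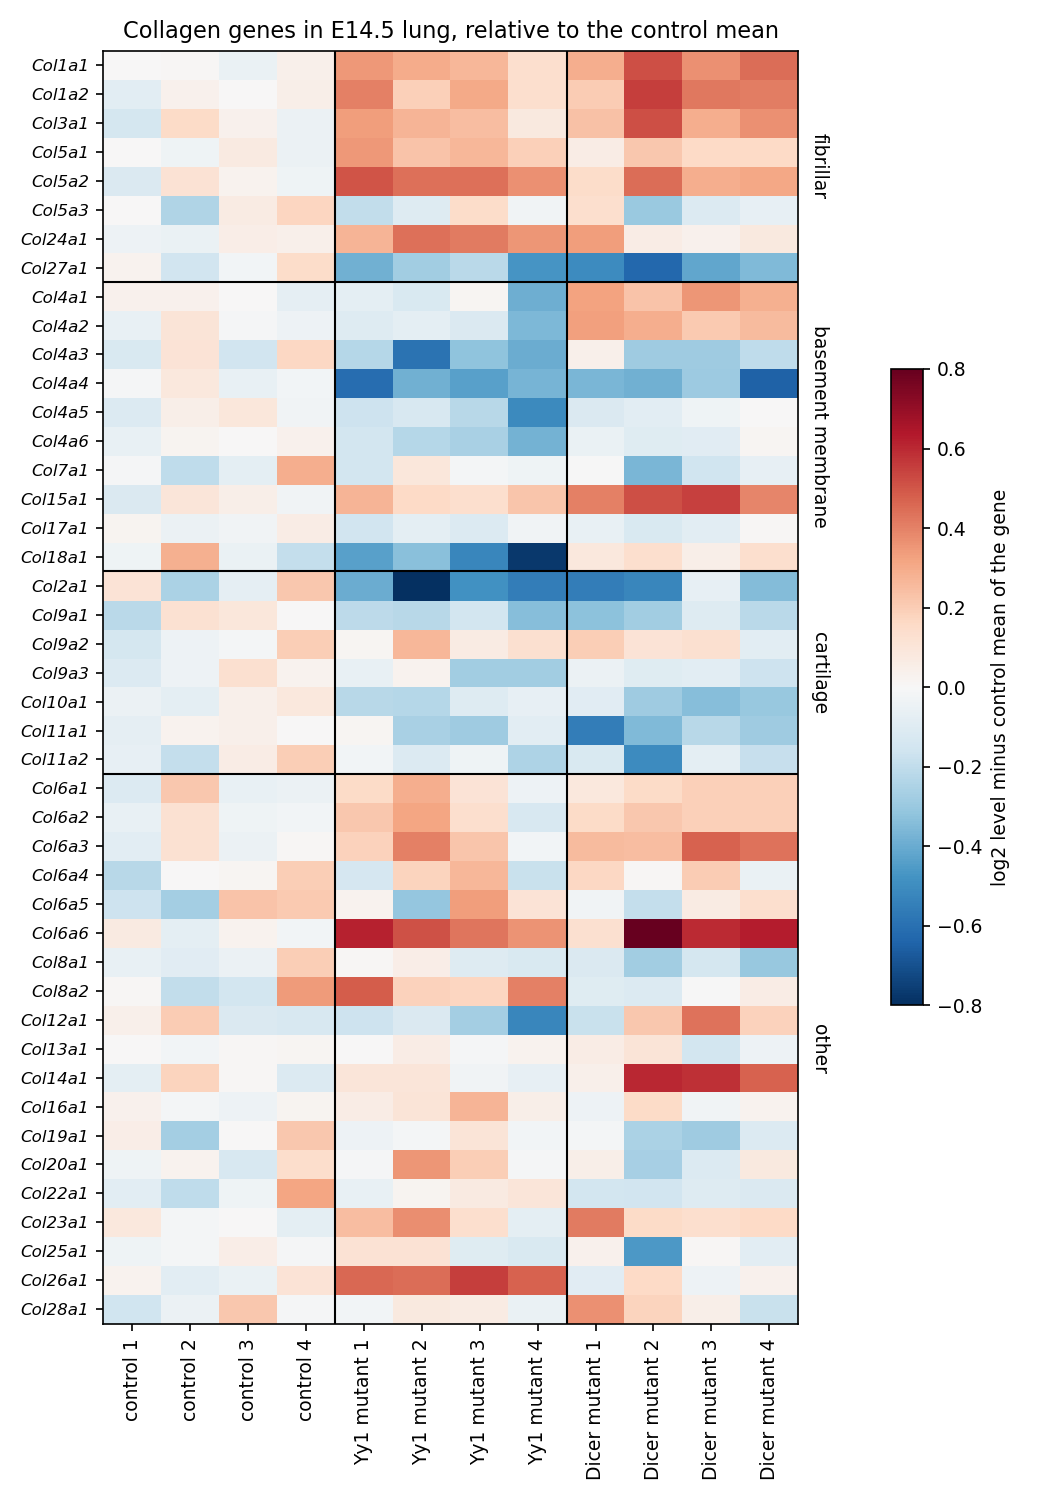
Colour map of the log2 level of each of the 44 collagen genes (rows, by class) on each of the 12 arrays (columns, by genotype), minus the control mean of that gene, with red for higher and blue for lower and the colours ending at -0.8 and 0.8. Most fibrillar rows are red in both mutants, Col4a1 and Col4a2 are red in the Dicer mutants and mostly blue in the Yy1 mutants, and most cartilage rows are blue.

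**Figure D2:**
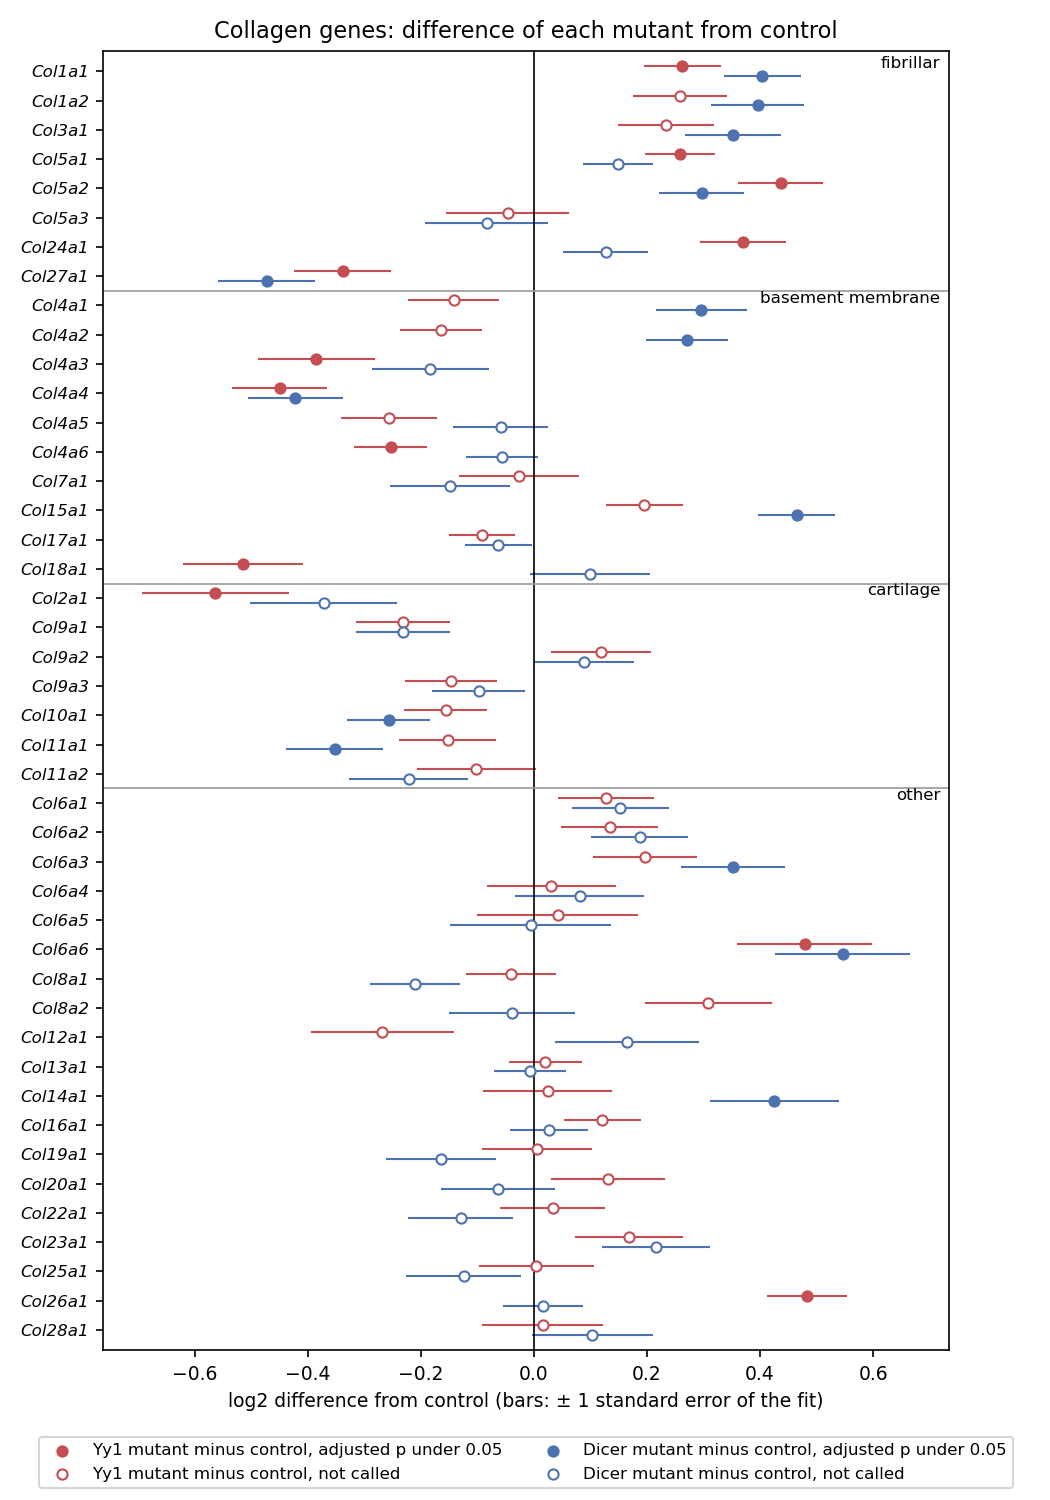
Log2 difference from control of each collagen gene (rows) in the Yy1 mutants (red) and the Dicer mutants (blue), with bars of 1 standard error of the fit and filled points for an adjusted p under 0.05. There are 12 filled points for the Yy1 mutants and 14 for the Dicer mutants.

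The fibrillar class held chains that build the banded fibrils of the interstitial matrix. Types II and XI form fibrils too, but Col2a1, Col11a1 and Col11a2 were counted with the cartilage collagens. The medians of both classes depend on that choice. Of the 8 genes of the fibrillar class, 4 rose and 1 fell in each mutant. The median difference was 0.26 in the Yy1 mutants and 0.22 in the Dicer mutants. Between the mutants 0 of the 8 were called by limma, where 1 had an unadjusted p under 0.05 with the higher level in the Yy1 mutants. Col5a3, the remaining member, was not called in any comparison, with differences of -0.05 and -0.08 from control.

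Col1a1 encodes the more abundant chain of type I collagen, the main collagen of fibrils. It read 11.28, 11.29, 11.23 and 11.32 in the controls, 11.63, 11.57, 11.55 and 11.41 in the Yy1 mutants, and 11.57, 11.79, 11.64 and 11.73 in the Dicer mutants. Every mutant array lay above every control array. The rise was 0.26 ± 0.07 (SE) in the Yy1 mutants (1.20-fold, adjusted p = 0.0356) and 0.40 ± 0.07 in the Dicer mutants (1.32-fold, adjusted p = 0.00227). The mutants did not differ past the threshold, with a 95% interval of -0.29 to 0.01 for Yy1 minus Dicer.

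Col1a2 encodes the partner chain of Col1a1 in type I collagen. Its levels were 10.36, 10.48, 10.45 and 10.49 in the controls, 10.85, 10.64, 10.75 and 10.58 in the Yy1 mutants, and 10.65, 10.996, 10.86 and 10.85 in the Dicer mutants. Here too no mutant array reached down to the controls. The difference passed in the Dicer mutants (0.40 ± 0.08, adjusted p = 0.0086) and not in the Yy1 mutants (0.26 ± 0.08, adjusted p = 0.0876).

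Col3a1 encodes the only chain of type III collagen, which accompanies type I in soft connective tissue. The controls read 10.26, 10.55, 10.43 and 10.34, the Yy1 mutants 10.73, 10.67, 10.64 and 10.47, and the Dicer mutants 10.63, 10.91, 10.68 and 10.76. All 4 Dicer mutant arrays were above the highest control, control 2, whereas Yy1 mutant 4 was below it. Col3a1 rose by 0.35 ± 0.09 in the Dicer mutants (1.28-fold, adjusted p = 0.0199), and its difference of 0.23 ± 0.09 in the Yy1 mutants did not pass (adjusted p = 0.139).

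The stretches upstream of Col1a2 and Col3a1, chains that rose together in the Dicer mutants, are shown because they differ in their letters. They are the 250 bases before the start in the RefSeq promoter table (GRCm38.p6), at chr6:4505368-4505617 on the plus strand for Col1a2 and chr1:45311288-45311537 on the plus strand for Col3a1. Capitals mark the letters of known promoter elements, each searched on both strands. The CCAAT box was searched as its own letters. The GC box was searched as GGGCGG and the TATA box as TATAAA.
Col1a2: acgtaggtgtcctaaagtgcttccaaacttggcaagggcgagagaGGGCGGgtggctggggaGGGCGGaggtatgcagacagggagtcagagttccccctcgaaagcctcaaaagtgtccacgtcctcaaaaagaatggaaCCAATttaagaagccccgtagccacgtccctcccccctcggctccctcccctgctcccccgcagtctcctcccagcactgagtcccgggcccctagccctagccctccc
Col3a1: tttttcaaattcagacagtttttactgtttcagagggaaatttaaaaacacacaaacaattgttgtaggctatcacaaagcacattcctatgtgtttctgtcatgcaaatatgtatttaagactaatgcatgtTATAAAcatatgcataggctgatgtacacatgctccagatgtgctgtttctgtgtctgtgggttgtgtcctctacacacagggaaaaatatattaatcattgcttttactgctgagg
In Col1a2 the window held GGGCGG at positions -205 and -188 and CCAAT at -109 from the start, and in Col3a1 it held TATAAA at -117. The letters CCAAT were found in 13 of the 35 collagen genes with a window in the table (37.1%) and in 33.8% of all 32851 windows of that length. GGGCGG was found in 21 collagen genes (60.0%) and 32.7% of all windows, and TATAAA in 5 (14.3%) and 12.4%. The core of the YY1 motif, searched as CCATNTT, was found in 2 collagen genes, Col18a1 and Col6a4 (5.71%), and in 12.4% of all windows. The collagen shares count genes with a match in any of their windows, 38 windows for 35 genes. The other shares count each window by itself, so the units are not alike. These are matches of letters at any place in the window, so a match is not shown to act as a promoter element. Binding was not measured.

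Type V collagen starts type I fibrils and limits their width, and both of its main chains rose in the Yy1 mutants. Col5a2 read 8.55, 8.78, 8.69 and 8.63 in the controls, 9.16, 9.10, 9.11 and 9.03 in the Yy1 mutants, and 8.81, 9.11, 8.95 and 8.97 in the Dicer mutants. The mutant arrays were all above the controls, by the narrowest margin in Dicer mutant 1. Col5a2 rose by 0.44 ± 0.08 in the Yy1 mutants (1.35-fold, adjusted p = 0.00298) and by 0.30 ± 0.08 in the Dicer mutants (1.23-fold, adjusted p = 0.0252). Col5a1 read 8.63, 8.59, 8.70 and 8.58 in the controls, 8.97, 8.85, 8.89 and 8.81 in the Yy1 mutants, and 8.68, 8.84, 8.78 and 8.79 in the Dicer mutants. The Yy1 mutants were clear of the controls, and Dicer mutant 1 lay within their range. Col5a1 rose in the Yy1 mutants (0.26 ± 0.06, adjusted p = 0.023), and its difference of 0.15 ± 0.06 in the Dicer mutants did not pass (adjusted p = 0.173).

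The minor fibrillar chains Col24a1 and Col27a1 went in opposite directions. Col24a1, a chain known from developing bone and cornea, read 6.22, 6.20, 6.31 and 6.29 in the controls, 6.53, 6.70, 6.67 and 6.61 in the Yy1 mutants, and 6.59, 6.31, 6.29 and 6.33 in the Dicer mutants. It rose by 0.37 ± 0.08 in the Yy1 mutants (adjusted p = 0.00896). All 4 Yy1 mutant arrays were above the controls. Dicer mutant 1 stood well above the other Dicer mutants, which lay at or near the top of the control range, and the difference of 0.13 ± 0.08 did not pass (adjusted p = 0.359). Col27a1, a fibrillar chain best known from cartilage, read 8.63, 8.45, 8.58 and 8.75 in the controls, 8.22, 8.33, 8.38 and 8.13 in the Yy1 mutants, and 8.10, 7.97, 8.19 and 8.25 in the Dicer mutants. No mutant array overlapped the controls. Col27a1 fell by 0.34 ± 0.09 in the Yy1 mutants (adjusted p = 0.0307) and by 0.47 ± 0.09 in the Dicer mutants (1.39-fold, adjusted p = 0.00358).

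**Figure D3:**
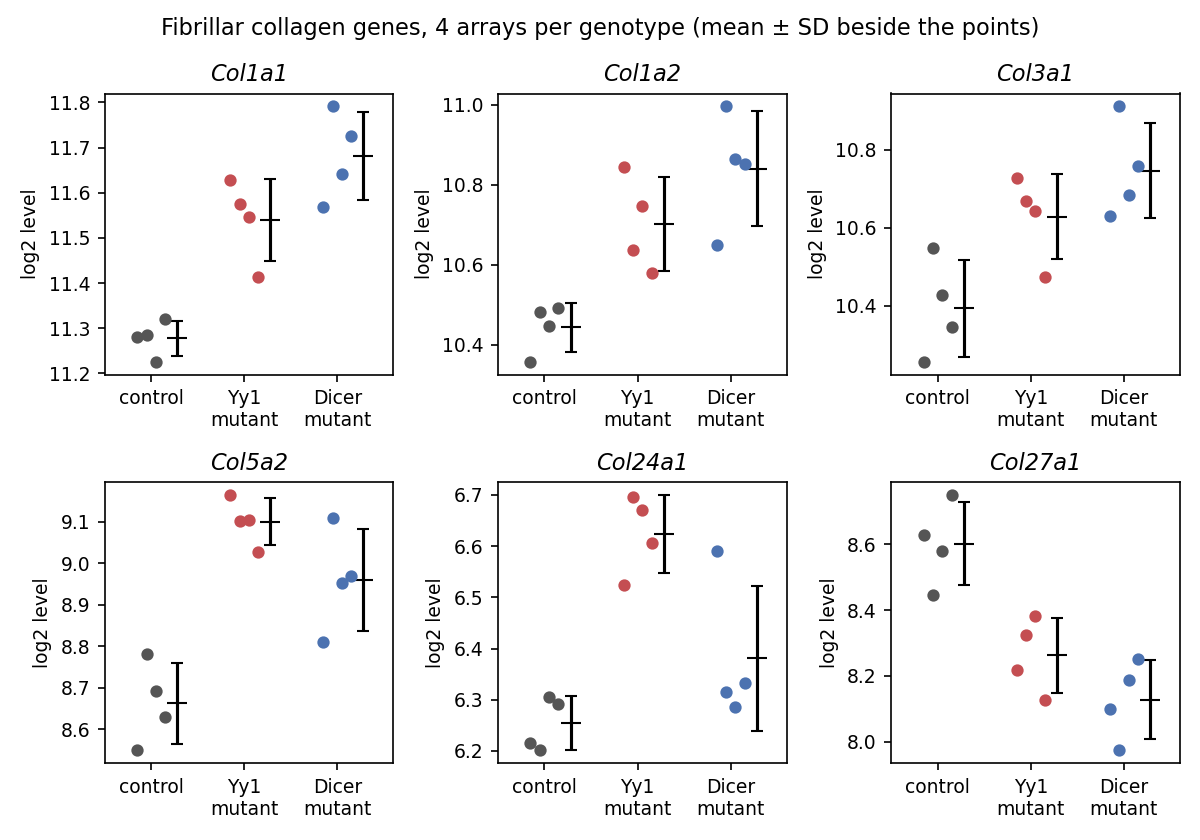
Log2 level of 6 fibrillar collagen genes on each array (points), with the mean and SD of the 4 arrays of each genotype beside them; the vertical axes do not start at 0. Col1a1, Col1a2 and Col5a2 are above the controls on all mutant arrays, Col27a1 is below them, and Dicer mutant 1 stands apart for Col24a1 at 6.59.

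The calls of Col1a1 and Col27a1 in the Dicer mutants held in every alternative that was run. Those of Col5a2 and Col24a1 in the Yy1 mutants and of Col1a2 in the Dicer mutants held when any 1 array was left out, and were lost without the 3 Y-raised arrays (adjusted p = 0.0641, 0.159 and 0.0571). For Col1a2 the mean of its probe sets also ended the call (adjusted p = 0.0543), while 3 alternatives called its rise in the Yy1 mutants. Other fibrillar calls depended on single arrays, and several also on the normalisation or the groups fitted. In the Yy1 mutants Col1a1 was lost without any of the 4 controls, Yy1 mutant 1, 2 or 3, or Dicer mutant 3 or 4 (adjusted p from 0.0502 to 0.112), and also with quantile normalisation (0.0725), equal array medians (0.1) or only the compared groups in the fit (0.0645). Col5a1 was lost without control 2, control 4, Yy1 mutant 1 or Yy1 mutant 3 (from 0.0504 to 0.0817), with equal array medians (0.0797) or with only the compared groups fitted (0.06). Col27a1 was lost there without control 1, 3 or 4 or Yy1 mutant 1 or 4 (from 0.0621 to 0.0935), with quantile normalisation (0.0536) or with only the compared groups fitted (0.0535). In the Dicer mutants Col3a1 was lost without control 1, control 4, Dicer mutant 2 or Dicer mutant 4 (from 0.0509 to 0.0669), and Col5a2 without control 1, 3 or 4 or Dicer mutant 2, 3 or 4 (from 0.0512 to 0.0829) or with only the compared groups fitted (0.0619). None of these 5 calls held without the 3 Y-raised arrays (adjusted p from 0.0584 to 0.256).

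Markers of lung mesenchyme, whose fibroblasts make fibrillar collagen, moved beside this class. Of 10 such markers 6 rose in the Yy1 mutants, with a median of 0.34, and 4 rose in the Dicer mutants, with a median of 0.12. None fell by limma, where 0 and 1 were lower at an unadjusted p under 0.05. Lum and Dcn, proteoglycans that bind collagen fibrils, rose by 1.29 ± 0.14 and 0.69 ± 0.08 in the Yy1 mutants and by 1.03 ± 0.14 and 0.88 ± 0.08 in the Dicer mutants. The summed level of a list is the log2 of the sum of its unlogged levels, so brighter genes weigh more in it. For this list it ran from 12.85 to 12.97 on the control arrays. In the Yy1 mutants it ran from 13.22 to 13.35 and in the Dicer mutants from 13.12 to 13.25, without overlap with the controls. Macrophage markers also rose, 7 of 9 in the Yy1 mutants and 8 of 9 in the Dicer mutants, and 7 of 8 smooth muscle markers fell in each mutant, with medians of -1.43 and -1.32. The part of these lists in the collagen differences was not tested.

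Among the basement membrane collagens, 0 rose and 4 of 10 fell in the Yy1 mutants by limma, with 1 higher at an unadjusted p under 0.05 (Col15a1) and a median difference of -0.21. In the Dicer mutants 3 rose and 1 fell, with a median of -0.06. Between the mutants, 4 of the 10 genes were lower in the Yy1 mutants (Col4a1, Col4a2, Col15a1 and Col18a1), with a median of -0.20.

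Col4a1 and Col4a2 encode the chains of the type IV collagen network found in nearly every basement membrane. Col4a1 read 9.01, 9.01, 8.98 and 8.90 in the controls, 8.90, 8.85, 8.99 and 8.58 in the Yy1 mutants, and 9.29, 9.20, 9.33 and 9.26 in the Dicer mutants. Col4a2 read 8.66, 8.82, 8.71 and 8.67 in the controls, 8.62, 8.64, 8.60 and 8.36 in the Yy1 mutants, and 9.04, 9.01, 8.93 and 8.97 in the Dicer mutants. For both genes the Dicer mutant arrays lay above all other arrays, and Yy1 mutant 4 was the lowest of the 12.

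Both chains rose in the Dicer mutants, Col4a1 by 0.30 ± 0.08 (1.23-fold, adjusted p = 0.0372) and Col4a2 by 0.27 ± 0.07 (1.21-fold, adjusted p = 0.0347). In the Yy1 mutants the differences were -0.14 ± 0.08 (adjusted p = 0.382) and -0.16 ± 0.07 (adjusted p = 0.236), which did not pass. Against the Dicer mutants, the Yy1 mutants were lower by -0.44 ± 0.08 for Col4a1 (1.36-fold, adjusted p = 0.00579) and -0.44 ± 0.07 for Col4a2 (1.35-fold, adjusted p = 0.00292).

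These genes lie head to head on opposite strands of chromosome 8, and the starts that the RefSeq promoter table (GRCm38.p6) gives them overlap by 22 bases.

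The other type IV chains are found in selected basement membranes, including those of the airways and, later, the alveoli. Col4a4 read 6.75, 6.84, 6.70 and 6.73 in the controls, 6.14, 6.37, 6.32 and 6.38 in the Yy1 mutants, and 6.39, 6.37, 6.46 and 6.10 in the Dicer mutants. All mutant arrays were below all controls. Col4a4 fell by 0.45 ± 0.08 in the Yy1 mutants (1.37-fold, adjusted p = 0.00497) and by 0.42 ± 0.08 in the Dicer mutants (1.34-fold, adjusted p = 0.00651). Its head-to-head neighbour Col4a3 read 6.21, 6.44, 6.18 and 6.50 in the controls, 6.10, 5.74, 6.01 and 5.93 in the Yy1 mutants, and 6.37, 6.05, 6.05 and 6.13 in the Dicer mutants. The Yy1 mutants were below the controls, and the Dicer mutants overlapped them. Col4a3 fell in the Yy1 mutants (-0.38 ± 0.10, adjusted p = 0.0406) and did not pass in the Dicer mutants (-0.18 ± 0.10, adjusted p = 0.326).

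Col4a6, which joins Col4a5 in a network found around smooth muscle and under some epithelia, read 6.78, 6.86, 6.84 and 6.87 in the controls, 6.69, 6.61, 6.58 and 6.46 in the Yy1 mutants, and 6.78, 6.74, 6.75 and 6.85 in the Dicer mutants. The Yy1 mutants lay below every other array. Col4a6 fell by 0.25 ± 0.06 there (adjusted p = 0.0294), and its difference in the Dicer mutants was -0.06 ± 0.06 (adjusted p = 0.666). Col4a5, named here because it is the neighbour of Col4a6, had a difference of the same size in the Yy1 mutants that did not pass (-0.26 ± 0.08, adjusted p = 0.0958).

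Types XV and XVIII carry heparan or chondroitin sulfate and join basement membranes to the matrix beside them. Col18a1, the precursor of endostatin, read 8.45, 8.77, 8.43 and 8.29 in the controls, 8.05, 8.15, 7.97 and 7.72 in the Yy1 mutants, and 8.57, 8.62, 8.53 and 8.62 in the Dicer mutants. The Yy1 mutants were below all other arrays, while the Dicer mutants lay within the control range. Col18a1 fell by 0.52 ± 0.11 in the Yy1 mutants (1.43-fold, adjusted p = 0.00911), differed by 0.10 ± 0.11 in the Dicer mutants (adjusted p = 0.644), and was lower in the Yy1 than in the Dicer mutants by -0.61 ± 0.11 (1.53-fold, adjusted p = 0.00348).

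Col15a1, a collagen of capillary and muscle basement membranes, read 7.42, 7.63, 7.58 and 7.51 in the controls, 7.81, 7.69, 7.67 and 7.75 in the Yy1 mutants, and 7.94, 8.05, 8.08 and 7.93 in the Dicer mutants. The groups followed each other without overlap, with the controls lowest and the Dicer mutants highest. Col15a1 rose by 0.46 ± 0.07 in the Dicer mutants (1.38-fold, adjusted p = 0.000793), and the Yy1 mutants were below the Dicer mutants by -0.27 ± 0.07 (adjusted p = 0.0366). The difference of 0.20 ± 0.07 between Yy1 mutants and controls did not pass (adjusted p = 0.119). Col7a1, of the anchoring fibrils, and Col17a1, of the hemidesmosomes, were not called in any comparison, with differences from control between -0.15 and -0.03.

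**Figure D4:**
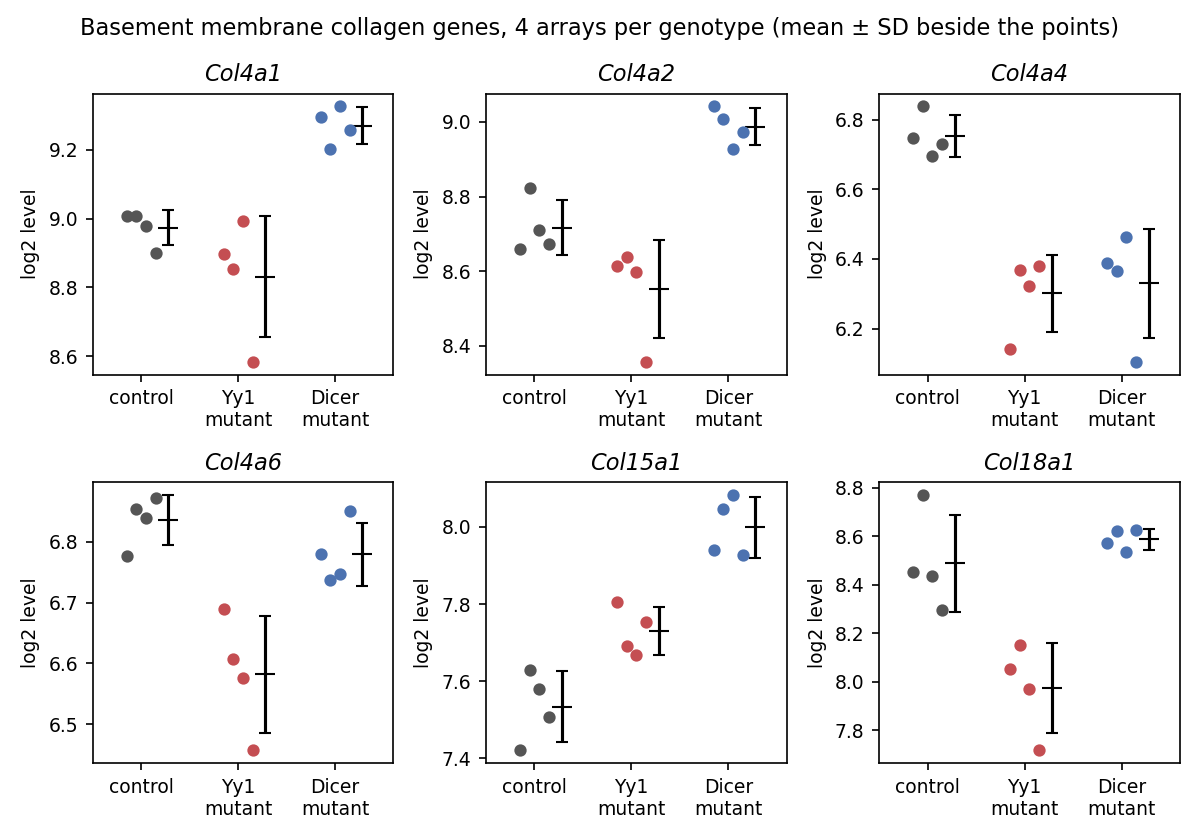
Log2 level of 6 basement membrane collagen genes on each array (points), with the mean and SD of the 4 arrays of each genotype beside them; the vertical axes do not start at 0. Col4a1, Col4a2 and Col15a1 are highest in the Dicer mutants, Col4a6 and Col18a1 lowest in the Yy1 mutants, and Col4a4 is below the controls in both.

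The calls of Col4a4 in both mutants, of Col18a1 in the Yy1 mutants, of Col15a1 in the Dicer mutants, and of Col4a1, Col4a2 and Col18a1 between the mutants held in every alternative that was run. Others did not. The rise of Col4a1 in the Dicer mutants was lost when any control or any Dicer mutant array was left out (adjusted p from 0.0518 to 0.0989). That of Col4a2 was lost without control 1, 3 or 4 or any Dicer mutant array (from 0.0548 to 0.0872), and with equal array medians both were lost (0.0526 and 0.0536). In the Yy1 mutants Col4a3 was lost without control 2 or 4, Yy1 mutant 2, 3 or 4, or Dicer mutant 3 or 4 (from 0.0504 to 0.102), with array weights (0.0694) or with only the compared groups fitted (0.0599). Col4a6 was lost without control 2, 3 or 4 or Yy1 mutant 3 or 4 (from 0.0589 to 0.0885) or with only the compared groups fitted (0.079). Col15a1 between the mutants was lost without control 3, any Yy1 mutant array, or Dicer mutant 2, 3 or 4 (from 0.0501 to 0.115). Without the 3 Y-raised arrays these 5 calls were lost as well (adjusted p from 0.0905 to 0.298).

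Markers of the cells that rest on basement membranes moved as well. Of 12 epithelial markers, 10 fell in the Yy1 mutants (median -0.76) and 9 fell in the Dicer mutants (median -0.36). Their summed level ran from 12.48 to 12.67 in the controls, 11.73 to 12.03 in the Yy1 mutants and 12.03 to 12.26 in the Dicer mutants. Of 10 endothelial markers, 1 rose in the Yy1 mutants (median 0.09) and 8 rose in the Dicer mutants (median 0.44), among them Pecam1 by 0.47 ± 0.08 and Kdr by 0.37 ± 0.07. The endothelial sum ran from 12.74 to 12.96 in the controls, 12.80 to 13.04 in the Yy1 mutants and 13.20 to 13.30 in the Dicer mutants. Between the mutants 7 of the 10 endothelial markers and 5 of the 12 epithelial markers were lower in the Yy1 mutants, and 2 epithelial markers were higher. The part of these cells in the basement membrane collagens was not tested.

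Of the 7 cartilage collagens, 0 rose and 1 fell in the Yy1 mutants and 0 rose and 2 fell in the Dicer mutants by limma, and 0 were higher in either mutant at an unadjusted p under 0.05. The medians were -0.15 and -0.23, and 6 of the 7 differences were below 0 in each mutant. Between the mutants 0 were called, with 1 higher in the Yy1 mutants at an unadjusted p under 0.05. Those not called and not described below (Col9a1, Col9a2, Col9a3 and Col11a2) lay between -0.23 and 0.12.

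Col2a1, the main collagen of cartilage, read 7.87, 7.51, 7.68 and 7.98 in the controls, 7.36, 6.94, 7.27 and 7.21 in the Yy1 mutants, and 7.21, 7.24, 7.69 and 7.41 in the Dicer mutants. All Yy1 mutant arrays were below all controls, and Dicer mutant 3 lay within the control range. Col2a1 fell by 0.56 ± 0.13 in the Yy1 mutants (1.48-fold, adjusted p = 0.018). In the Dicer mutants the difference of -0.37 ± 0.13 did not pass (adjusted p = 0.0993), and the interval for Yy1 minus Dicer was -0.47 to 0.09.

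Col11a1, a chain of the type XI collagen inside cartilage fibrils, read 6.92, 7.01, 7.02 and 6.99 in the controls, 6.998, 6.73, 6.70 and 6.90 in the Yy1 mutants, and 6.43, 6.63, 6.76 and 6.70 in the Dicer mutants. The Dicer mutants were below the controls, and the Yy1 mutants overlapped both. Col11a1 fell by 0.35 ± 0.09 in the Dicer mutants (1.28-fold, adjusted p = 0.0206), and the difference of -0.15 ± 0.09 in the Yy1 mutants did not pass (adjusted p = 0.372). Col10a1, the collagen of hypertrophic cartilage, is among the dimmest 30% of genes here, with 5.17, 5.14, 5.26 and 5.31 in the controls, 4.998, 4.99, 5.12 and 5.15 in the Yy1 mutants, and 5.13, 4.94, 4.88 and 4.92 in the Dicer mutants. The highest Dicer mutant array was just below the lowest control. Col10a1 fell by 0.26 ± 0.07 in the Dicer mutants (adjusted p = 0.0447).

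The cartilage calls all depended on single arrays. Col2a1 was lost in the Yy1 mutants without control 1, control 4 or Yy1 mutant 2 (adjusted p from 0.0514 to 0.0568), and was gained in the Dicer mutants without control 2 (0.0481) or Dicer mutant 3 (0.0401). In the Dicer mutants Col11a1 was lost without control 3, Dicer mutant 1 or Dicer mutant 2 (from 0.0507 to 0.0569). Col10a1 was lost without control 1, 3 or 4, Yy1 mutant 1 or 3, or Dicer mutant 2, 3 or 4 (from 0.0568 to 0.127), with an intensity trend and robust prior (0.0977) or with only the compared groups fitted (0.0801). Without the 3 Y-raised arrays Col2a1 (0.187) and Col10a1 (0.172) were lost. Of 10 other cartilage markers 2 fell in each mutant, with medians of -0.11 and -0.19, and their summed level ran from 10.28 to 10.41 in the controls, 9.94 to 9.99 in the Yy1 mutants and 9.96 to 10.30 in the Dicer mutants. Cnmd, which encodes chondromodulin, fell by 1.11 ± 0.18 and 0.98 ± 0.18. The other marker that fell was Cytl1 in the Yy1 mutants (-1.32 ± 0.18) and Epyc, dim at 4.88 in the controls, in the Dicer mutants (-0.53 ± 0.12). Cytl1, at 8.35 in the controls, is among the brighter markers of the list and so weighs heavily in the sum. The rest of the list did not pass against the controls. The part of cartilage in the specimens in these values was not tested.

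The 19 other collagens are of several kinds, among them chains that form beaded filaments, sit on the surface of fibrils or span the cell membrane. The Yy1 mutants had 2 rises and 0 falls by limma, with 0 lower at an unadjusted p under 0.05, and in the Dicer mutants 3 rose and 0 fell, with 1 lower at an unadjusted p under 0.05. The medians were 0.04 and 0.03. Between the mutants 1 was higher in the Yy1 mutants and 0 were lower, with 2 lower at an unadjusted p under 0.05.

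Type VI collagen makes the beaded filaments around cells, and its chains did not behave alike. Col6a3, the large chain that completes the common form, read 8.68, 8.89, 8.71 and 8.77 in the controls, 8.95, 9.16, 8.98 and 8.74 in the Yy1 mutants, and 9.02, 9.01, 9.24 and 9.20 in the Dicer mutants. The Dicer mutants were above all controls, and Yy1 mutant 4 was within them. Col6a3 rose by 0.35 ± 0.09 in the Dicer mutants (1.28-fold, adjusted p = 0.0287), and the 0.20 ± 0.09 in the Yy1 mutants did not pass (adjusted p = 0.262). Col6a6, which can take the place of Col6a3, read 7.39, 7.24, 7.34 and 7.29 in the controls, 7.93, 7.82, 7.74 and 7.68 in the Yy1 mutants, and 7.44, 8.15, 7.91 and 7.95 in the Dicer mutants. All mutant arrays were above the controls, Dicer mutant 1 by little. Col6a6 rose by 0.48 ± 0.12 in the Yy1 mutants (1.39-fold, adjusted p = 0.029) and by 0.55 ± 0.12 in the Dicer mutants (1.46-fold, adjusted p = 0.0118). The partner chains Col6a1 and Col6a2 and the related Col6a4 and Col6a5 were not called, with differences from control between -0.01 and 0.19.

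Col14a1, which binds the surface of interstitial fibrils, read 8.63, 8.89, 8.72 and 8.60 in the controls, 8.80, 8.80, 8.68 and 8.64 in the Yy1 mutants, and 8.75, 9.31, 9.29 and 9.18 in the Dicer mutants. Dicer mutants 2, 3 and 4 were above every other array, and Dicer mutant 1 lay among the controls. Col14a1 rose by 0.43 ± 0.11 in the Dicer mutants (1.34-fold, adjusted p = 0.0334), with 0.02 ± 0.11 in the Yy1 mutants (adjusted p = 0.947), and the mutants did not differ past the threshold (adjusted p = 0.0639). Col14a1 was thus called in the Dicer mutants although they overlapped the controls. Calls and overlap rest on the same values, so groups without overlap are no separate support for a call.

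Col26a1, a collagen first described in testis and ovary, read 7.25, 7.14, 7.17 and 7.33 in the controls, 7.68, 7.68, 7.78 and 7.70 in the Yy1 mutants, and 7.13, 7.39, 7.19 and 7.26 in the Dicer mutants. The Yy1 mutant arrays were above all others. Col26a1 rose by 0.48 ± 0.07 in the Yy1 mutants (1.40-fold, adjusted p = 0.000852), differed by 0.02 ± 0.07 in the Dicer mutants (adjusted p = 0.925), and was higher in the Yy1 than in the Dicer mutants by 0.47 ± 0.07 (1.38-fold, adjusted p = 0.00145).

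**Figure D5:**
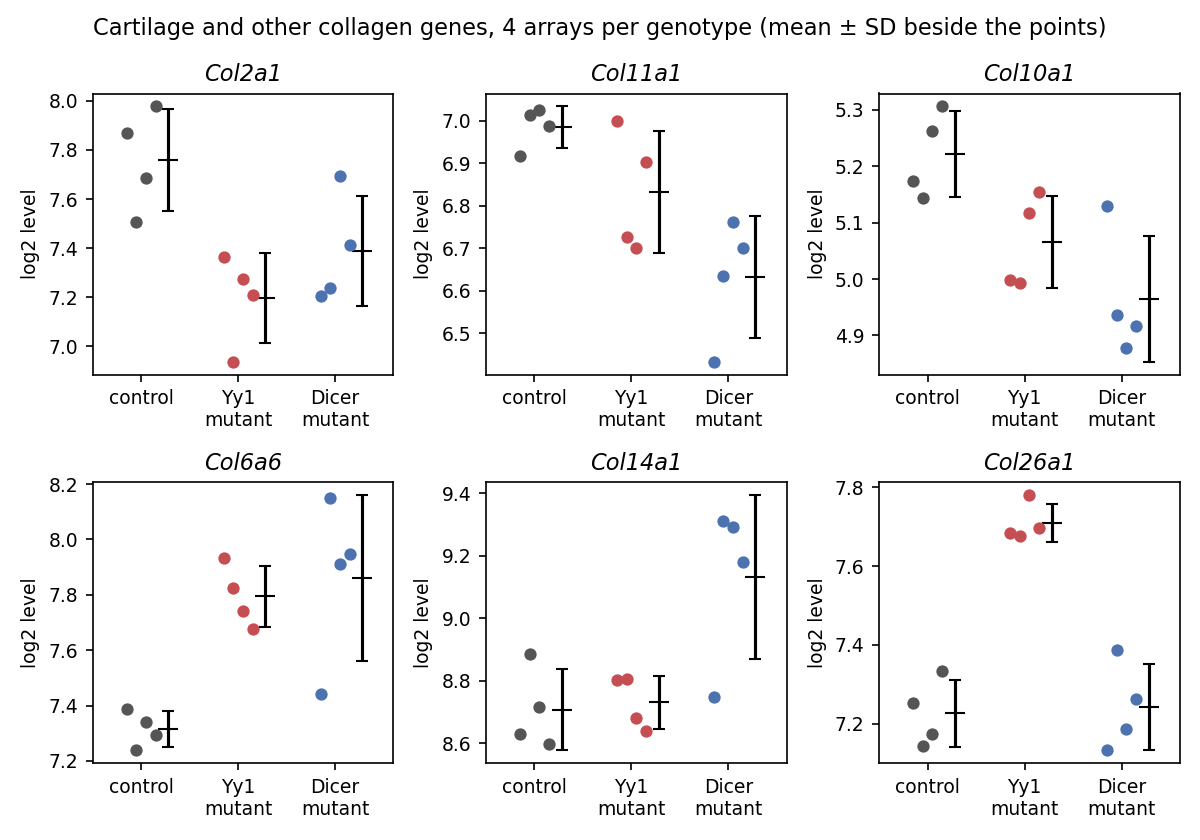
Log2 level of 3 cartilage and 3 other collagen genes on each array (points), with the mean and SD of the 4 arrays of each genotype beside them; the vertical axes do not start at 0. Col2a1 is lowest in the Yy1 mutants, Col6a6 is above the controls in both mutants, Dicer mutant 1 lies apart from the other Dicer mutants for Col6a6 and Col14a1, and Col26a1 is high in the Yy1 mutants.

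The rise of Col26a1 in the Yy1 mutants held in every alternative that was run, and its difference between the mutants was lost only without the 3 Y-raised arrays (adjusted p = 0.0539). So was the rise of Col6a6 in the Dicer mutants (0.0802). In the Yy1 mutants Col6a6 was lost without any control or Yy1 mutant 1, 2 or 3 (from 0.0523 to 0.0918). In the Dicer mutants Col6a3 was lost without control 1, 3 or 4 or Dicer mutant 3 or 4 (from 0.056 to 0.0883), and Col14a1 without control 1, 3 or 4 or Dicer mutant 2, 3 or 4 (from 0.0707 to 0.104) or with only the compared groups fitted (0.0781). Without the 3 Y-raised arrays these 3 calls were lost (0.179, 0.0813 and 0.142). The 15 members of the class other than Col6a3, Col6a6, Col14a1 and Col26a1 were not called in any comparison, with differences from control between -0.27 (Col12a1) and 0.31 (Col8a2). Between the mutants Col12a1 differed by -0.43 ± 0.13 (adjusted p = 0.0732). It was called there without the dimmest 30% of genes, with an intensity trend and robust prior, with array weights or without Dicer mutant 1. Without control 4, Col8a2 was called higher in the Yy1 mutants than in both other groups.

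MicroRNAs of the miR-29 family are cut by Dicer and are known to target transcripts of fibrillar and type IV collagens. Their mature forms are shown, from RefSeq (GRCm38.p6), because all 3 share the seed (bases 2 to 8, in capitals) through which such transcripts are bound.
mmu-miR-29a-3p: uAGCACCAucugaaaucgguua
mmu-miR-29b-3p: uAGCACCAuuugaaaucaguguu
mmu-miR-29c-3p: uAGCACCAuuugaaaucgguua
Of 8 collagens described as miR-29 targets (Col1a1, Col1a2, Col3a1, Col4a1, Col4a2, Col5a1, Col5a2 and Col5a3), 6 rose in the Dicer mutants, with a median of 0.30, and 3 rose in the Yy1 mutants, with a median of 0.25. Among all genes 4.78% rose in the Dicer mutants and 2.77% in the Yy1 mutants. Between the mutants Col4a1 and Col4a2 were the 2 of the list that differed. Of the type IV chains and the chains classed here as fibrillar that are outside this list, Col27a1 and Col4a4 fell in both mutants. In the Yy1 mutants Col4a3 and Col4a6 of these chains also fell, and Col24a1 rose. Target sites were not searched, so chains outside the list are not shown to lack them. Mature microRNAs were not measured. The probe set for the precursor gene Mir29a read 1.92 ± 0.16 (SD) in the controls, 1.87 ± 0.24 in the Yy1 mutants and 2.19 ± 0.21 in the Dicer mutants, near the lowest value of the whole table (1.10), and was not called (adjusted p = 0.901 and 0.237). The part of miR-29 in the collagen levels was not tested.

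A new collagen chain is hydroxylated, folded and exported by a set of enzymes and chaperones, of which 18 of 20 listed genes were measured. Of these, 2 rose and 3 fell in the Yy1 mutants (median 0.01), in the Dicer mutants 4 rose and 2 fell (median 0.06), and between them 2 were lower in the Yy1 mutants, Mia2 and Colgalt1. P4ha1, a catalytic subunit of prolyl 4-hydroxylase, rose by 0.28 ± 0.06 and 0.23 ± 0.06 in the Yy1 and Dicer mutants. P4ha3, another such subunit, fell by 0.68 ± 0.11 and 0.59 ± 0.11. P3h2, a prolyl 3-hydroxylase that acts on type IV collagen, fell by 0.72 ± 0.09 (adjusted p = 0.000231) and 0.58 ± 0.09 (adjusted p = 0.00111). Enzymes of the same step thus changed in both directions. Mia2, which helps load procollagen into transport vesicles, fell by 0.45 ± 0.12 in the Yy1 mutants and rose by 1.32 ± 0.12 in the Dicer mutants (adjusted p = 2.1e-05). It was dim, at 5.05 in the controls and 4.60 in the Yy1 mutants, against 6.37 in the Dicer mutants, so its fall is less certain.

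After secretion the end pieces are removed and the fibrils crosslinked, and 11 of 13 genes listed for these steps were measured. Adamts3, a procollagen N-proteinase, rose in the Yy1 mutants (0.51 ± 0.13). Falling in the Dicer mutants were 2 genes, the enhancers of C-proteinase activity Pcolce (-0.40 ± 0.07) and Pcolce2 (-0.49 ± 0.09). Between the mutants 0 were called by limma, with 2 higher and 2 lower at an unadjusted p under 0.05. The measured lysyl oxidases, which start the crosslinks, were not called in any comparison.

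Of 10 listed collagen receptors, 9 were measured. Ddr1, a receptor tyrosine kinase of epithelium that binds collagen, rose by 0.28 ± 0.07 in the Yy1 mutants and 0.31 ± 0.07 in the Dicer mutants. Itga2, a chain of a collagen-binding integrin, rose by 0.56 ± 0.06 in the Dicer mutants (adjusted p = 4.08e-05), with a difference of 0.00 ± 0.06 in the Yy1 mutants (adjusted p = 0.994), and was lower in the Yy1 than in the Dicer mutants by -0.56 ± 0.06. The other 7 receptors were not called in any comparison.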

How the data were processed

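The values are log2 levels per probe set that the authors deposited as a table of 12 arrays, already normalised. How, and with which software, is not given in the sources used here. The base of 2 was taken from the range of the values, 1.10 to 13.58. The table held 41345 probe sets. A single gene symbol was listed for 23521 of them, and the probe set with the highest mean stood for each of 22180 genes. All 47 collagen probe sets with 1 symbol entered this choice, and 1 collagen probe set with several symbols was left out. Each value rests on 4 arrays per genotype, whose number limits the precision, and pairs of arrays correlated at 0.978 to 0.991, with 0 identical pairs.

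The 3 genotypes were fitted together with limma 3.58.1 in R 4.3.3 (9 residual degrees of freedom, empirical Bayes moderation, two-sided), with Benjamini-Hochberg adjustment over all genes and no filter. In simulated data for the Yy1 comparison over 22180 genes, log2 shifts of 0.5, 1 and 2 were called for 67.2% of 67, 95.5% of 67 and 100.0% of 66 genes, with 10 false calls. The members, classes and lists were chosen with earlier results of these data known, so their counts are descriptions. Named members are the 21 collagens called in any comparison or chosen as main chains of their class (Col1a1, Col1a2, Col3a1, Col4a1, Col4a2, Col2a1 and Col6a3). From the lists only called genes are named, at most 4 per list and comparison. The alternatives were array weights, a replicate block, a robust prior with intensity trend, medians of the arrays made equal, quantile normalisation, leaving out the dimmest 30% of genes, averaging the probe sets of a gene, fitting the compared groups alone, each array left out, and the 3 arrays with raised Y-linked genes left out together. Tables and plots were made with Python 3.11.15, pandas 2.3.3, numpy 2.4.6 and matplotlib 3.10.9.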

Additional observations from a re-analysis of the deposited data

Results flagged for a closer look

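In 2 of the 63 groups of 4 arrays examined, over the 21 named collagens and 3 genotypes, a single array lay far from the others by Dixon's criterion, which chance alone meets in about 1 group in 20. Col24a1 read 6.59 in Dicer mutant 1, against 6.29 to 6.33 on the other 3 Dicer mutant arrays. Col4a2 read 8.36 in Yy1 mutant 4, against 8.60 to 8.64 on the other 3 Yy1 mutant arrays.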

How the results depend on the processing

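Of 31 calls, counting each collagen in each comparison, 10 held in every alternative and 15 held with each of the 12 arrays left out in turn. These 31 calls and 6 chosen pairs of gene and comparison that were not called gave 776 values under alternatives. Of these, 0 changed sign, 632 stayed on the same side of the threshold, 139 lost the call and 5 gained it. Pairs outside this count also gained calls, such as Col9a1 in both mutants without control 1 and Col14a1 between the mutants with array weights. With single arrays left out, the number that rose ran from 3 to 6 in the Yy1 mutants and from 4 to 10 in the Dicer mutants, the number that fell from 2 to 6 and from 2 to 5, and between the mutants 1 to 2 were higher and 3 to 6 lower in the Yy1 mutants. The shares of all genes then ran from 1.81% to 2.8% (rose) and 2.69% to 3.76% (fell) in the Yy1 mutants. In the Dicer mutants these shares ran from 3.33% to 5.06% and from 2.42% to 4.09%. Between the mutants they ran from 0.784% to 1.71% (higher) and from 2.43% to 3.61% (lower). With the 3 arrays of raised Y-linked signal left out, 1 rose and 2 fell in the Yy1 mutants, 2 rose in the Dicer mutants, and 0 were higher between the mutants by limma (3 at an unadjusted p under 0.05); this alternative leaves fewer arrays. In a fit of only the groups compared, 3 fell in the Yy1 mutants, beside 2.84% of all genes. Array weights gave 2 higher and 7 lower between the mutants, beside 3.19% and 4.95% of all genes. The cause of these shifts was not tested.

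With the replicate number as a term (replicate block), 4 rose and 3 fell in the Yy1 mutants, 10 rose and 3 fell in the Dicer mutants, and 1 was higher and 3 lower between the mutants. In the same order, the shares of all genes were 2.45% and 3.42%, 4.55% and 3.78%, and 1.3% and 3.2%. Besides the alternatives named for each class above, this term ended the calls of Col1a1, Col27a1, Col4a3, Col4a6 and Col6a6 in the Yy1 mutants. It also ended those of Col10a1 in the Dicer mutants and Col15a1 between the mutants. Same-numbered arrays correlated in their deviations from the group means at -0.16 to 0.19, so the numbers were not shown to pair the specimens. All values come from whole lungs, and the number of arrays limits what can be called: a gene that did not pass is not shown to be alike between genotypes. Dim genes such as Col10a1 and Col6a4 are the least certain.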

Other observations

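Several collagen genes lie next to each other in the genome, by the order of genes in RefSeq (GRCm38.p6). Col3a1 and Col5a2, neighbours on chromosome 1, differed from control by 0.23 and 0.44 in the Yy1 mutants and by 0.35 and 0.30 in the Dicer mutants. Col4a5 and Col4a6 on chromosome X differed by -0.26 and -0.25 in the Yy1 mutants and by -0.06 and -0.06 in the Dicer mutants. Col6a1 and Col6a2 on chromosome 10 differed by 0.13 and 0.13, and by 0.15 and 0.19. In the run of Col6a4, Col6a5 and Col6a6 on chromosome 9, only Col6a6 was called, while its direct neighbour Col6a5 differed from control by 0.04 in the Yy1 mutants and -0.01 in the Dicer mutants.

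The genes Col1a2, Col5a1 and Col6a1 each had a second, dimmer probe set. That of Col1a2 read 7.03, 7.17, 6.95 and 6.84 in the controls, 7.33, 6.89, 7.39 and 7.47 in the Yy1 mutants, and 6.93, 7.63, 7.34 and 7.31 in the Dicer mutants. In both mutants 1 array lay within the control range, which was not so for the brighter probe set of the gene. The second probe set of Col5a1 read 6.15 in Yy1 mutant 1, within the control range of 6.04 to 6.26, and 6.46 to 6.59 in the other Yy1 mutants. Its brighter probe set had no such overlap. With the mean of its probe sets, the rise of Col5a1 in the Yy1 mutants stayed called (adjusted p = 0.0147).

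Among markers of further cell types, 1 of 5 mesothelial markers rose in the Yy1 mutants and 2 in the Dicer mutants. Of 6 skeletal muscle markers, 0 were called by limma or had an unadjusted p under 0.05 in any comparison. Of 3 measured Schwann cell markers 0 were called by limma, with 1 higher in each mutant than in the controls at an unadjusted p under 0.05.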
